A study of Mus musculus with 8 samples.

Results

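Control lung myofibroblasts of mice at postnatal day 7 were described from 4 of the 8 RNA-seq libraries of a study of Fra-2, an AP-1 family transcription factor. The 4 libraries, control 1 to control 4, were chosen by their labels and not by any measured value: each was labelled wildtype, on the C57BL/6 strain background, and of the cell type lung myofibroblasts, with no treatment named. The other 4 libraries of the series, from mice that express Fra-2 constitutively, were not used here. The labels do not say how the myofibroblasts were isolated, whether they were cultured, or whether each library came from a separate animal or a pool, so the spread among the 4 libraries may be partly technical. RNA was extracted from lysates, mRNA was selected on beads, and the cDNA was amplified before the libraries were made.

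Myofibroblasts of the newborn lung are contractile mesenchymal cells that sit at the mouths of the forming alveoli and secrete tropoelastin, which is assembled on fibrillin microfibrils and cross-linked by lysyl oxidases. They respond to platelet-derived growth factor A through the receptor PDGFRα and lie at the tips of the septa that divide the air sacs during the postnatal weeks in which alveoli form. Smooth muscle actin and smooth muscle myosin mark their contractile apparatus, and elastin and fibrillin-1 mark their elastic fibre programme.

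The 4 libraries held 41335957, 35761984, 31986025 and 33720401 reads counted to genes. Levels are given as CPM, the counts scaled to a library total of 1000000 after TMM scaling of the library sizes, and, where genes are set side by side, as RPKM, the CPM divided by exon length in kilobases. Of 43432 rows, 11972 genes reached at least 1 CPM in each of the 4 libraries and count as detected here. Nuclear protein-coding genes took 87.9% of counts in control 2 and 91.6% to 94.2% in the others. The mitochondrial ribosomal RNAs took 1.86%, 7.5%, 2.26% and 0.910% of counts in control 1 to control 4, so control 2 stood apart from the others in them. In control 4 short genes lay higher than in the other libraries: across the 9503 detected nuclear coding genes whose mean reached 5 CPM, the deviation of a gene from its 4-library mean had a Spearman correlation with exon length of -0.31, against 0.08 to 0.18 in the other 3. No pair of libraries agreed within counting noise, and all 4 were kept as separate samples, as labelled. Because the cDNA was amplified, this check alone cannot tell separate animals from separate preparations of the same RNA.

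All 5 identity markers were among the most abundant transcripts in the count table. Acta2, which encodes smooth muscle α-actin, was counted at 3061, 3151, 3050.1 and 3905 CPM in control 1 to control 4. Control 4 was higher than the other 3, which lay close together. The mean was 3292 ± 411 CPM (SD, n = 4), and per kilobase Acta2 was rank 6 of all nuclear protein-coding genes with 1499 ± 187 RPKM. Myh11, the smooth muscle myosin heavy chain, was counted at 4504, 4203, 3734 and 3713 CPM, highest in control 1 and lowest in control 4. Its mean was 4038 ± 384 CPM, and its rank per kilobase was 19 at 531 ± 50.6 RPKM.

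Of the elastic fibre pair among the markers, Fbn1, which encodes the microfibril protein fibrillin-1, was counted at 5969, 5856, 6431 and 6904 CPM, with controls 3 and 4 above controls 1 and 2. Its mean of 6290.4 ± 479 CPM was the largest of the 5 markers on the CPM scale, and its rank per kilobase was 20 at 519 ± 39.5 RPKM. Eln, the gene of tropoelastin, was counted at 1629, 1719, 2036 and 1808 CPM, with control 3 the highest. Its mean was 1798 ± 174 CPM, and it had rank 86 per kilobase at 222 ± 21.5 RPKM. Pdgfra, the receptor for platelet-derived growth factor A, was counted at 1071, 957, 1244 and 1295 CPM, and controls 3 and 4 were above controls 1 and 2. Its mean was 1142 ± 156 CPM, with rank 208 per kilobase at 114 ± 15.6 RPKM.

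In order per kilobase the 5 markers were Acta2, Myh11, Fbn1, Eln and Pdgfra. The ranges of Myh11 and Fbn1 over the 4 libraries overlapped on the RPKM scale, at 489 to 593 and 483 to 569, so these neighbours did not differ beyond their spread. The other neighbours in that order did not overlap. With the longest annotated transcript in place of the union of exons as length, Eln had rank 40, Pdgfra 176 and Fbn1 32, while Acta2 kept rank 6. The coefficients of variation of the 5 markers ran from 7.62% for Fbn1 to 13.7% for Pdgfra, with a median of 9.71%. The median was 14.6% over all detected genes. It was 9.81% over the 111 genes at 1000 CPM or more, the class of all 5 markers, so they were about as steady as genes of like abundance. The least read of them, Pdgfra, had 33616 to 46332 reads in a library, and counting alone gave it a spread of 0.5%. In the annotation of mouse build GRCm38, Acta2 lies at chr19:34241090-34255590 on the minus strand, Myh11 at chr16:14194535-14291372 on the minus strand, Fbn1 at chr2:125300594-125507993 on the minus strand, Eln at chr5:134702593-134747323 on the minus strand, and Pdgfra at chr5:75152292-75198215 on the plus strand.

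**Figure D1:**
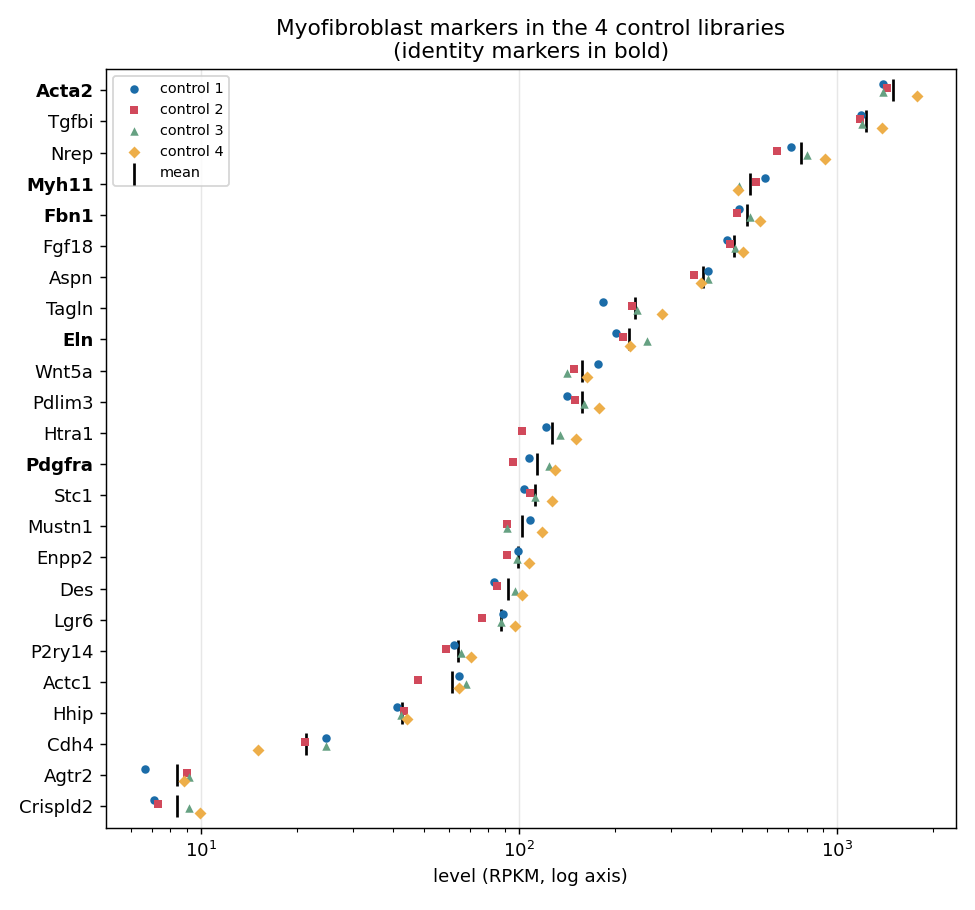
Level of the 5 identity markers (bold) and 19 alveolar and ductal myofibroblast markers in RPKM on a log axis; each coloured point is 1 control library and the black bar is the mean of the 4. Acta2 leads at a mean of 1499 RPKM, the points of most genes lie close together, and control 4 is the rightmost point for 14 of the 19 listed alveolar and ductal markers.

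All 19 genes of a wider list of alveolar and ductal myofibroblast markers were detected, and 16 of them lay in the top 10% of detected nuclear coding genes per kilobase. Their median was 102 RPKM, against 4.87 RPKM over all detected nuclear coding genes. Like the other lists, this list was chosen with earlier results of these data known. Tgfbi, a secreted adhesion protein induced by TGF-β, led the list with 1185, 1179, 1192 and 1382 RPKM, and control 4 was above the other 3. Fgf18, a growth factor of the developing lung mesenchyme, had 449, 459, 476 and 504 RPKM, a spread of 5.13% around a mean of 472 ± 24.2 RPKM. Aspn, a small leucine-rich proteoglycan, averaged 377 ± 18.2 RPKM, and Nrep averaged 768 ± 116 RPKM. Lower on the list but still high were the Wnt ligand Wnt5a at 157 ± 15.9 RPKM, the R-spondin receptor Lgr6 at 87.3 ± 8.41 RPKM, the intermediate filament gene Des at 91.9 ± 9.13 RPKM and the Hedgehog-binding protein gene Hhip at 42.9 ± 1.34 RPKM. The 3 members outside the top 10% were Cdh4 with 21.4 ± 4.53 RPKM, Agtr2, an angiotensin receptor, with 8.4 ± 1.18 RPKM, and Crispld2 with 8.37 ± 1.38 RPKM. Of the 19, 14 were highest in control 4, a library that was highest for 33.2% of all detected genes. The list took 1.57%, 1.4%, 1.53% and 1.7% of counts in control 1 to control 4.

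Read counts were concentrated on few genes. Mitochondrially encoded genes took the largest share of any list, 4.79% to 10.5% of counts, with mt-Rnr2 at 22683 ± 20877 CPM, mt-Cytb at 11594 ± 3508 CPM and mt-Co1 at 10023 ± 3371 CPM among the leaders. The 100 most abundant genes took 26.7%, 31.8%, 29.3% and 28.2% of counts in control 1 to control 4, and 510 genes held 50% of all reads. 111 genes had a mean of at least 1000 CPM and 1961 of at least 100 CPM. Among nuclear protein-coding genes the leader per kilobase was Sparc, a collagen-binding matricellular protein, with 2152, 2287, 2622 and 3067 RPKM. It was followed by Csrp1, a LIM protein of the actin cytoskeleton, with 1307, 1684, 1809 and 2290.1 RPKM. Control 4 was the highest and control 1 the lowest for both, and Sparc was above Csrp1 within each library although their ranges overlapped. Mfap4, a microfibril-associated glycoprotein, had 1601 ± 345 RPKM, the proteoglycan gene Bgn (biglycan) 1553 ± 169 RPKM, and Fstl1, a secreted follistatin-like protein, 1516 ± 102 RPKM.

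Ranks 6 to 15 per kilobase were held by Acta2, Tgfbi, P4ha3, Hsp90ab1, Col1a1, Tnc, Egr1, Nrep, Col3a1 and Tpm4. P4ha3, a collagen prolyl hydroxylase subunit, had 954, 1045, 969 and 974 RPKM, a spread of 4.12%. Hsp90ab1, a constitutive chaperone, had 913, 964, 891 and 1001 RPKM, and Egr1, an immediate early transcription factor, had 748, 823, 1040.4 and 806 RPKM with control 3 the highest. Of the 15 neighbouring pairs in the order from rank 1 to rank 16, only Acta2 against Tgfbi and Tgfbi against P4ha3 had ranges over the 4 libraries that did not overlap. The ranges of neighbours from Sparc to Acta2, and from P4ha3 to Actb, overlapped. Rank 16, Actb, the cytoplasmic β-actin, had 466, 617, 684 and 809.7 RPKM.

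**Figure D2:**
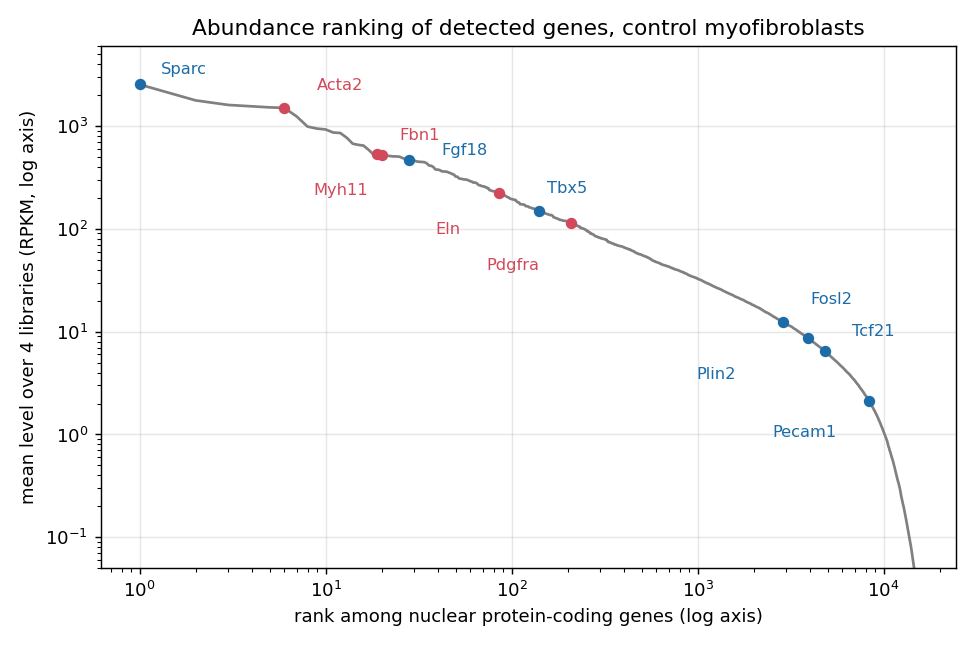
Mean RPKM over the 4 control libraries of the detected nuclear protein-coding genes (grey line, log axis) against their rank (log axis), with identity markers in red and other named genes in blue. Acta2 sits at rank 6 and Pdgfra at rank 208, while Fosl2 (rank 2867), Plin2 (rank 3916), Tcf21 (rank 4818) and Pecam1 (rank 8374) lie on the falling right side.

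All 33 genes of a list of contractile and smooth muscle genes were detected, and 24 were in the top 10% per kilobase. The list took 3.39%, 3.17%, 3.26% and 3.53% of counts, with control 2 lowest and control 4 highest. Beyond Csrp1, Acta2 and Myh11 the leaders were the tropomyosin gene Tpm4 at 655 ± 65.4 RPKM, the enteric smooth muscle actin Actg2 at 516 ± 77 RPKM and the myosin regulatory light chain Myl9 at 461 ± 126 RPKM. Myl9 had 359.9, 386, 458 and 639.5 RPKM, highest in control 4, a spread of 27.4%. Cald1 (caldesmon), which binds actin and tropomyosin, averaged 352 ± 14.8 RPKM with a spread of 4.2%. Mylk, the myosin light chain kinase, averaged 197 ± 16.1 RPKM, the actin cross-linker Flna 282 ± 30.8 RPKM, and the calponin gene Cnn1 101 ± 28.9 RPKM.

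Transcriptional partners of the contractile programme were much lower. Srf, the serum response factor, was counted at 124, 112, 123 and 124 CPM and averaged 41.7 ± 1.99 RPKM. Its cofactor Myocd (myocardin) was counted at 78.2, 108, 115 and 132 CPM, lowest in control 1, and averaged 16.9 ± 3.5 RPKM. The related cofactors Mrtfa and Mrtfb averaged 7.84 ± 0.214 RPKM and 14.4 ± 0.453 RPKM. Of the 6 actin genes, Acta2, Actb and Actg2 held ranks 6, 16 and 21 per kilobase, and Actc1, the cardiac actin, averaged 61.5 ± 8.99 RPKM. The skeletal actin Acta1 was at 0.671, 1.08, 1.17 and 1.32 CPM and the cytoplasmic γ-actin Actg1 at 0.717, 1.88, 0.982 and 0.993 CPM, and neither passed the detection rule.

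Serum response factor binds the CArG box, 10 bases that begin with CC, end with GG and hold only A and T between. Because the contractile list was so abundant, promoter windows of its members were searched for this motif on both strands, as it reads the same way on both. The windows came from RefSeq on build GRCm38.p6 and ran from 250 bases before to 50 after each annotated start, and 29 of the 33 contractile genes and 4 of the 6 actin genes had one. The box was present in 5 of those 29 genes (17.2%), which were Cnn2, Myl9, Myl6, Vcl and Srf, and in Acta1, Actc1 and Actg1 among the actins. Other lists reached like shares in small numbers, with 3 of 19 Wnt genes (15.8%), 2 of 9 alveolar type 1 markers (22.2%), 2 of 13 cardiac and skeletal muscle markers (15.4%) and 2 of 17 immediate early genes (11.8%). Over all 27025 genes with a window the share was 1.81%, over the 9266 detected genes with a window 1.66%, and over the 398 such genes among the 500 of highest RPKM 4.02%. The 8 genes with a box ran from Myl9 at 461 ± 126 RPKM down to Actg1 at 0.43 ± 0.191 RPKM. A match is a description of letters and not a binding site. No exact box lay in the windows of Acta2, Fbn1 or Pdgfra. Boxes with a G or C inside the A and T stretch were not searched for, so these promoters may hold such boxes. Myh11 and Eln had no window. The AP-1 letters TGACTCA or their reverse complement TGAGTCA, bound by Fra-2 and its partners, lay in the windows of Cald1, Mylk, Zyx and Mrtfb (4 of 29, 13.8%). The share was 5.95% of all genes with a window, 4.26% of detected ones and 5.53% of those among the 500 of highest RPKM. Other lists, many of them small, ran from 0% to 15.4%, so the contractile list did not stand alone. Stretches before the start of 7 genes with a CArG box are shown with the box in capitals, 5′ to 3′ on the strand of the gene, because these actin and contractile genes carry the motif and their counts differ widely, although the count of Actg1 is uncertain because its transcripts share sequence with other genes:
Acta1, chr8:123894814-123894893, minus strand: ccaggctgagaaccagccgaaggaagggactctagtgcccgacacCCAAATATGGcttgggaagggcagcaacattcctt
Actc1, chr2:114052888-114052967, minus strand: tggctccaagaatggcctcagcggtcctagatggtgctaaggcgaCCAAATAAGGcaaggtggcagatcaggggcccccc
Actg1, chr11:120348551-120348630, minus strand: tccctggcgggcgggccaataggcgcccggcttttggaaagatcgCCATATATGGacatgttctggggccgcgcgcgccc
Cnn2, chr10:79988499-79988578, plus strand: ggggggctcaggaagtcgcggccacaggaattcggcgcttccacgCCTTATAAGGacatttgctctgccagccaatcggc
Myl9, chr2:156775258-156775337, plus strand: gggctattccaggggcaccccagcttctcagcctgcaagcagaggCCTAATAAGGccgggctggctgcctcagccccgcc
Srf, chr17:46556210-46556289, minus strand: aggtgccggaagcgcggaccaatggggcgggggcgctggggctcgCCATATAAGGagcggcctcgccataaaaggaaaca
Vcl, chr14:20929148-20929205, plus strand: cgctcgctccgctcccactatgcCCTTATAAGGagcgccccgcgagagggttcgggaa

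The boxes began 73 bases before the start in Acta1, 47 in Actc1, 90 in Actg1, 56 in Cnn2, 161 in Myl9, 82 in Srf and 227 in Vcl. Srf held another box, 62 bases before its start, which lies in the stretch shown but is left in lower case. The stretch of Myl6, whose box began 50 bases before the start, is not shown. Beside these sequences, Vcl (vinculin), which links actin to integrins, averaged 39.2 ± 5.61 RPKM, and Cnn2 56.1 ± 7.1 RPKM.

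Every one of 23 elastic fibre genes was detected, 14 of them in the top 10% per kilobase, and the list took 2%, 1.86%, 2.09% and 2.26% of counts. Besides Mfap4, Fbn1 and Eln, the leaders were Ltbp2, a latent TGF-β binding protein of microfibrils, at 451 ± 36.9 RPKM, and the lysyl oxidase Loxl2 at 336 ± 32.3 RPKM. Loxl2 had 292, 352, 336 and 366 RPKM, lowest in control 1, but 45% of the 50-base words in its annotated transcripts also occur in other genes, so its level is uncertain. The lysyl oxidases that cross-link elastin were lower, with Lox at 60.8 ± 6.7 RPKM and Loxl1 at 60.9 ± 3.15 RPKM. The fibulin that elastin assembly needs, Fbln5, was counted at 77.9, 104, 131 and 150.3 CPM, lowest in control 1 and highest in control 4, and averaged 16.8 ± 4.57 RPKM. Efemp2 (fibulin-4) averaged 26.5 ± 5.66 RPKM, and Fbn2, a fibrillin of early development, 38.2 ± 4.57 RPKM. Mfap4 was counted at 2399, 2736, 3250.4 and 3919.7 CPM and Ltbp4 at 685, 641, 864 and 909.6 CPM. Control 4 was highest for 16 of the 23 genes and lowest for none, against 33.2% and 26.6% of all detected genes.

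Fibrillar collagens and their partners took the largest share of counts among the nuclear gene lists, at 4.2%, 4.15%, 4.25% and 4.59%, and all 16 genes were detected. As reads per kilobase the order turned over, with 2.83% for this list and 3.45% for the contractile list. Col1a1 and Col1a2, the chains of type I collagen, were counted at 5230.5, 6834, 6075 and 6129 CPM and 6093, 6558, 5851 and 6441 CPM. Control 2 was the highest library for both. Col3a1, the chain of type III collagen, was counted at 7249, 6247, 6687 and 6182 CPM and was highest in control 1. Per kilobase Col1a1 had 924 ± 100 RPKM, Col3a1 672 ± 50.2 RPKM and Col1a2 502 ± 26 RPKM, and the ranges of Col1a1 and Col3a1 did not overlap at 797 to 1041 and 630 to 739 RPKM. Col5a1, which sets fibril diameter, had 186 ± 7.91 RPKM, and Col12a1, a fibril-associated collagen, 128 ± 12.8 RPKM. The fibroblast proteoglycan genes Dcn (decorin) and Lum (lumican) were far lower at 24 ± 2.98 RPKM and 6.98 ± 1.92 RPKM.

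Of 16 matched collagen processing genes, all were detected. The collagen chaperone Serpinh1 was counted at 801, 627, 1073 and 1176 CPM, and controls 3 and 4 lay above controls 1 and 2, a spread of 27.3%. It averaged 376 ± 103 RPKM, between the prolyl hydroxylase subunits P4ha3 at 986 ± 40.6 RPKM and P4hb at 215 ± 22.5 RPKM. The paralogous subunits P4ha1 and P4ha2 averaged 13.5 ± 1.69 RPKM and 4.95 ± 0.0866 RPKM. P4ha2 varied little, at 31.6, 30.4, 30.6 and 30.8 CPM. The procollagen protease Adamts2 averaged 94.8 ± 6.29 RPKM, and Bmp1 16.5 ± 2.46 RPKM.

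Basement membrane genes took 0.963% to 1.07% of counts, and all 19 were detected. The laminin γ1 gene Lamc1 led with 288 ± 30.7 RPKM, then the nidogen Nid1 with 238 ± 30.1 RPKM. The type IV collagen chains Col4a2 and Col4a1, whose genes lie head to head, averaged 196 ± 16.7 RPKM and 173 ± 6.96 RPKM, while Col4a3 and Col4a4, chains of the epithelial type, averaged 0.699 ± 0.174 RPKM and 0.433 ± 0.167 RPKM. Lamb1 was counted at 811, 831, 815 and 825 CPM, among the 10 genes of least spread in the libraries.

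Matricellular proteins, which sit in the matrix and signal to cells, took 2.04% to 2.33% of counts, and 12 of 13 were detected. Tnc (tenascin C) had 802, 775, 944 and 931 RPKM, with controls 3 and 4 above controls 1 and 2. Thbs1 (thrombospondin 1), an activator of latent TGF-β, averaged 409.6 ± 56.6 RPKM, Ccn1 348 ± 46.3 RPKM, Fn1 (fibronectin) 226 ± 21.1 RPKM and Postn (periostin) 191 ± 32.9 RPKM. Postn was counted at 2048, 1539, 1677 and 1376 CPM, highest in control 1. Spp1 (osteopontin), the member not detected, was at 0.0231, 0.285, 0.633 and 0.421 CPM.

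Among growth factor receptors, Pdgfra was above Pdgfrb, the receptor that marks pericytes, in all 4 libraries per kilobase: Pdgfrb had 60.5, 54.9, 69.5 and 71 RPKM. The ranges of the 2 receptor genes did not overlap. Ligands of the family were lower, with Pdgfa at 33.9 ± 2.23 RPKM, Pdgfc at 3.22 ± 0.318 RPKM and Pdgfb below detection at 0.416, 0.37, 0.697 and 0.391 CPM. Among fibroblast growth factors Fgf18 stood far above Fgf7 at 36.8 ± 4.48 RPKM, Fgf9 at 12.9 ± 3.21 RPKM and Fgf10 at 1.29 ± 0.229 RPKM. The receptors Fgfr1 and Fgfr2 averaged 24.5 ± 0.549 RPKM and 20.9 ± 3.08 RPKM, and Fgfr4 and Fgfr3 5.63 ± 1.2 RPKM and 1.06 ± 0.26 RPKM. In all, 15 of these 16 genes were detected and 5 lay in the top 10%.

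In the TGF-β and BMP list 24 of 25 genes were detected and 10 were in the top 10%. The ligand Bmp4 was counted at 535, 640.3, 471 and 486 CPM, highest in control 2, and averaged 237 ± 34 RPKM. Of the TGF-β ligands, Tgfb3 had 137 ± 11.5 RPKM and Tgfb2 119 ± 12 RPKM, and Tgfb1 was lower at 6.73 ± 1.47 RPKM. The ranges of Tgfb2 and Tgfb3 overlapped on the RPKM scale, and neither reached down to that of Tgfb1. The receptors Tgfbr3, Tgfbr2 and Tgfbr1 averaged 77.8 ± 13 RPKM, 32.4 ± 5 RPKM and 13.8 ± 0.651 RPKM. The BMP receptor genes Bmpr1a and Bmpr2 averaged 68.3 ± 7.77 RPKM and 38.6 ± 6.47 RPKM. The BMP target genes Id3, Id2 and Id1 averaged 33.7 ± 3.51 RPKM, 10.2 ± 0.972 RPKM and 4.44 ± 0.745 RPKM.

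Hedgehog response genes were detected, while few reads were counted to the ligand gene Shh. Ptch1, the receptor and a transcriptional target of the pathway, was counted at 1198, 1148, 1139 and 987 CPM, and Hhip, which also binds the ligand and is a target, at 375, 393, 386 and 404 CPM. The spread of Hhip was 3.12%. Smo, the signal transducer, was counted at 258, 269, 266 and 338 CPM, with control 4 above the rest. The target Gli1 was counted at 48.1, 42, 49.9 and 30.7 CPM, lowest in control 4. Shh, the ligand that airway epithelium secretes, was at 0.162, 0.199, 0.317 and 0 CPM. In control 4 it had no read, which allows up to 0.0903 CPM, and as 23.6% of its 50-base words are shared with other genes its level is uncertain. In all, 11 of the 12 genes were detected.

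Of 27 Wnt genes, 24 were detected. Dkk3, a secreted protein of the Dickkopf family, led with 506 ± 47.6 RPKM, followed by Wnt5a and the receptor gene Fzd1 at 118 ± 8.8 RPKM. Wnt5a was counted at 1383, 1162, 1102 and 1274 CPM, highest in control 1. Other ligands were lower, with Wnt9a at 17.4 ± 2.27 RPKM and Wnt11 at 15.3 ± 2.4 RPKM, and Wnt2, a ligand of matrix fibroblasts, was at 0.463, 1.91, 2.63 and 2.83 CPM, under 1 CPM in control 1 and so not detected by the rule. Axin2, a target of β-catenin signalling, was counted at 125, 95, 109 and 89.8 CPM, and the transcription factor Tcf7 averaged 63.1 ± 7.97 RPKM.

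The insulin-like growth factor list was detected in full, 14 of 14 genes. Igf1 was counted at 1011, 1102, 1211 and 1396 CPM, lowest in control 1 and highest in control 4, and its binding protein gene Igfbp5 at 1563, 1543, 1571 and 1684 CPM, with a spread of 4.01%. Per kilobase Igfbp5 averaged 265 ± 10.6 RPKM and Igf1 119 ± 16.7 RPKM. The receptor Igf1r was low at 5.63 ± 1 RPKM. Igf2 was counted at 70, 127, 138 and 199 CPM, but 62.1% of its 50-base words also occur in transcripts of other genes, so its level is uncertain. Notch genes were low: 10 of 13 were detected, none in the top 10%, with Heyl at 29 ± 6.78 RPKM, Notch2 at 19.4 ± 1.96 RPKM and Notch3, a mural cell receptor, at 6.95 ± 1.79 RPKM.

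Genes of retinoid handling and lipid storage, which mark lipid-laden interstitial fibroblasts, took 0.0288%, 0.0308%, 0.0317% and 0.0338% of counts. Of 19, 13 were detected and none lay in the top 10% per kilobase. Plin2, the coat protein of lipid droplets, was counted at 23.1, 32.7, 30.1 and 35.4 CPM, lowest in control 1. Pparg, the adipogenic nuclear receptor, was at 1.18, 0.256, 0.507 and 0.602 CPM and was not detected by the rule. The retinoic acid synthesising enzyme Aldh1a1 averaged 9.1 ± 2.32 RPKM.

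The transcription factors of lung mesenchyme varied little in sum among the libraries. Their share of counts was 0.67%, 0.659%, 0.669% and 0.657% in control 1 to control 4, a coefficient of variation of 0.959%, and 35 of 38 were detected. That small value depends on the raw totals. After TMM scaling the sums were 6400, 6706, 6772 and 6672 CPM, a mean of 6637.5 ± 164 CPM, which is a wider spread. Tbx4 and Tbx5, T-box factors of lung mesenchyme, had 169.9, 149, 164 and 161 RPKM and 156, 144, 149 and 145 RPKM. The forkhead factors Foxf2 and Foxf1, targets of Hedgehog signalling, averaged 143 ± 10.1 RPKM and 64.8 ± 12.6 RPKM, and the ranges of those values did not overlap. Snai2 averaged 105 ± 11.6 RPKM, Wwtr1 (TAZ) 62.2 ± 5.06 RPKM and Zeb2 58.7 ± 2.79 RPKM. Tcf21, a factor of lipid-bearing and matrix fibroblasts, was counted at 8.05, 16, 19.3 and 17.8 CPM and averaged 6.51 ± 2.14 RPKM. Nkx2-3, a gut mesenchyme factor, had no read in any library, and the stomach factor Barx1 had reads in control 1 alone, at 0.0231 CPM.

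Of 17 AP-1 family genes, 13 were detected. Fosl2, the gene of Fra-2, was counted at 106, 117, 141 and 119 CPM in these wildtype libraries, and its mean was 121 ± 14.9 CPM. Per kilobase it averaged 12.5 ± 1.53 RPKM, rank 2867 of nuclear coding genes. The other Fos genes were Fos at 153 ± 33.4 RPKM, Fosb at 80.1 ± 35.7 RPKM and Fosl1, which was not detected, at 0.971, 1.05, 1.11 and 0.873 CPM. Among Jun genes Jun averaged 114 ± 18.7 RPKM, Junb 26.3 ± 9.34 RPKM and Jund 8.21 ± 0.434 RPKM. The range of Fosl2, 10.9 to 14.6 RPKM, lay below those of Fos, Fosb and Jun and overlapped none of them. For Jund, 48.3% of its 50-base words are shared with another gene, and for Fosl1 52.6%.

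Immediate early genes are transcribed within minutes of a stimulus. Their summed share was 0.72%, 0.772%, 1.02% and 0.741%, highest in control 3, a coefficient of variation of 17%. Egr1 was counted at 3354, 3688, 4665 and 3613 CPM, the mRNA-decay factor Zfp36 at 477, 575, 1057 and 587 CPM and, of the Fos family, Fosb at 317, 522, 806 and 355 CPM. Control 3 was highest in each. In all, 17 of the 21 immediate early genes were highest in control 3, a library that was highest for 17.9% of all detected genes, and 14 were lowest in control 1, which was lowest for 28.3% of all. Heat shock and stress genes did not share that order: their summed share was 0.273%, 0.243%, 0.216% and 0.236%, with control 3 the lowest. The ER chaperone Hspa5 led with 360.4 ± 36.9 RPKM. How long the cells were handled before lysis is not given in the sources used here, and its part in these values was not tested.

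The 25 proliferation genes were all detected. Mki67, a marker of cycling cells, was counted at 509.7, 441, 399.6 and 244 CPM, more than 2-fold apart between control 1, the highest, and control 4, the lowest. Cenpf was counted at 71, 66, 51.6 and 34.3 CPM and Cenpe at 88.5, 83.3, 62.6 and 41.6 CPM, with control 4 again the lowest. All 6 replication licensing genes of the list, Mcm2 to Mcm7, were highest in control 4, with Mcm6 at 57, 62.4, 69.1 and 83.9 CPM and Mcm3 at 46.5, 45.8, 54.1 and 64.5 CPM, while Mcm7 differed little between controls 1 and 4 at 22.8, 21.7, 18 and 23 CPM. Over the 25 genes control 4 was highest for 11 and lowest for 7, and control 1 was lowest for 13, against 33.2%, 26.6% and 28.3% of all detected genes. Mki67, Cenpf and Cenpe have exon lengths of 10061, 15433 and 8620 bases, and Mcm6 and Mcm3 of 4666 and 3752. Control 4 was the library in which short genes lay high, and the part of length in these values was not tested. The cyclins Ccnd2 and Ccnd1 averaged 57.5 ± 5.25 RPKM and 41.8 ± 8.01 RPKM.

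Integrins, the receptors that tie cells to matrix, took 0.428% to 0.455% of counts. Itgb1, the shared β1 chain, had 445, 460.2, 499 and 499 RPKM, and its partner Itga9, a receptor for tenascin C, 212, 209, 202 and 209 RPKM, with a spread of 2.05%. Next were Itga5, the fibronectin receptor chain, at 35.2 ± 1.74 RPKM and Itgav at 29.8 ± 5.38 RPKM. Itga8, a nephronectin receptor, was counted at 55.7, 68.6, 99.1 and 98.2 CPM, with controls 3 and 4 above controls 1 and 2, and averaged 10.9 ± 2.95 RPKM. Npnt, the gene of that ligand nephronectin, was counted at 60.2, 98.8, 144 and 139 CPM and was likewise higher in controls 3 and 4.

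Markers of related mesenchymal cells were present at varied levels. Rgs5, which marks pericytes and vascular smooth muscle, was counted at 1313, 1360.2, 1376 and 1528 CPM and averaged 307 ± 20.5 RPKM, rank 53. Other pericyte genes were lower, with Kcnj8 at 40.1 ± 7.71 RPKM, Abcc9 at 17.1 ± 2.85 RPKM and Cspg4 at 3.85 ± 0.681 RPKM. Of 12 pericyte markers 11 were detected, and their summed share was 0.228% to 0.26%. Of 13 adventitial fibroblast markers 12 were detected, led by Dpt (dermatopontin) at 209.9 ± 31.6 RPKM, with Pi16 at 6.29, 7.54, 8.01 and 7.07 CPM. Of 15 markers of matrix and lipid-type fibroblasts 12 were detected, 4 of them in the top 10% per kilobase. Mfap4, which is also an elastic fibre gene, supplied most of the summed share of that list, 0.456% to 0.584%. In bulk RNA, fewer cells of a type and less of its RNA per cell cannot be told apart, and this holds for all the marker values here.

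Markers of cells outside the mesenchyme and mural lineages took a small share of counts. Single members were nonetheless high per kilobase. In each of the alveolar type 2, type 1, airway, leukocyte, and erythroid and platelet lists, 1 detected marker lay in the top 10%. Over 11 lists of epithelial, endothelial, blood, nerve, muscle, cartilage and mesothelial markers, 123 genes took 0.0829%, 0.112%, 0.122% and 0.118% of counts in control 1 to control 4, and 62 of them were detected. The surfactant gene Sftpc, of alveolar type 2 cells, was counted at 22, 36.9, 65.1 and 54.9 CPM, and Scgb1a1, of airway club cells, at 14.3, 29.8, 17.8 and 31.4 CPM. Cdh5 and Pecam1, of endothelium, were counted at 15.5, 25.4, 28.7 and 28.6 CPM and 11.4, 18, 10.9 and 11.9 CPM. The pan-leukocyte gene Ptprc was at 4.3, 8.77, 9.97 and 11.3 CPM, and the myeloid gene Lyz2 at 22.3, 36.2, 49.9 and 62.7 CPM. The epithelial adhesion gene Epcam was at 0.809, 1.08, 1.74 and 1.47 CPM. Vegfa, at 152, 161, 175 and 145 CPM, led the alveolar type 1 list and Etv5, at 56.9, 65, 74.5 and 76.1 CPM, came after Sftpc in the type 2 list, and neither gene is restricted to epithelium. Control 1 was the lowest library for 28.3% of all detected genes. It was lowest for 8 of 8 detected alveolar type 2 markers, 8 of 9 type 1, 4 of 5 airway, 7 of 10 leukocyte and 5 of 6 erythroid and platelet markers. Among 11 detected endothelial markers it was lowest for 5 and control 3 for 4, Pecam1 among the latter.

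Haemoglobin genes showed the same low place of control 1. Hbb-bs was counted at 6.91, 28.1, 52.1 and 32.4 CPM and Hba-a1 at 2.96, 14.7, 22.3 and 16 CPM, lowest in control 1 and highest in control 3. The haemoglobin genes Hbb-bs, Hbb-bt, Hba-a1 and Hba-a2 share 53.2% to 89.3% of their 50-base words with a twin gene, so their separate levels are uncertain. The heart genes Myh6, at 7.49, 17.1, 23.2 and 37.7 CPM, and Tnnt2, at 10.2, 14.4, 32.1 and 34.7 CPM, were lowest in control 1 and highest in control 4.

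**Figure D3:**
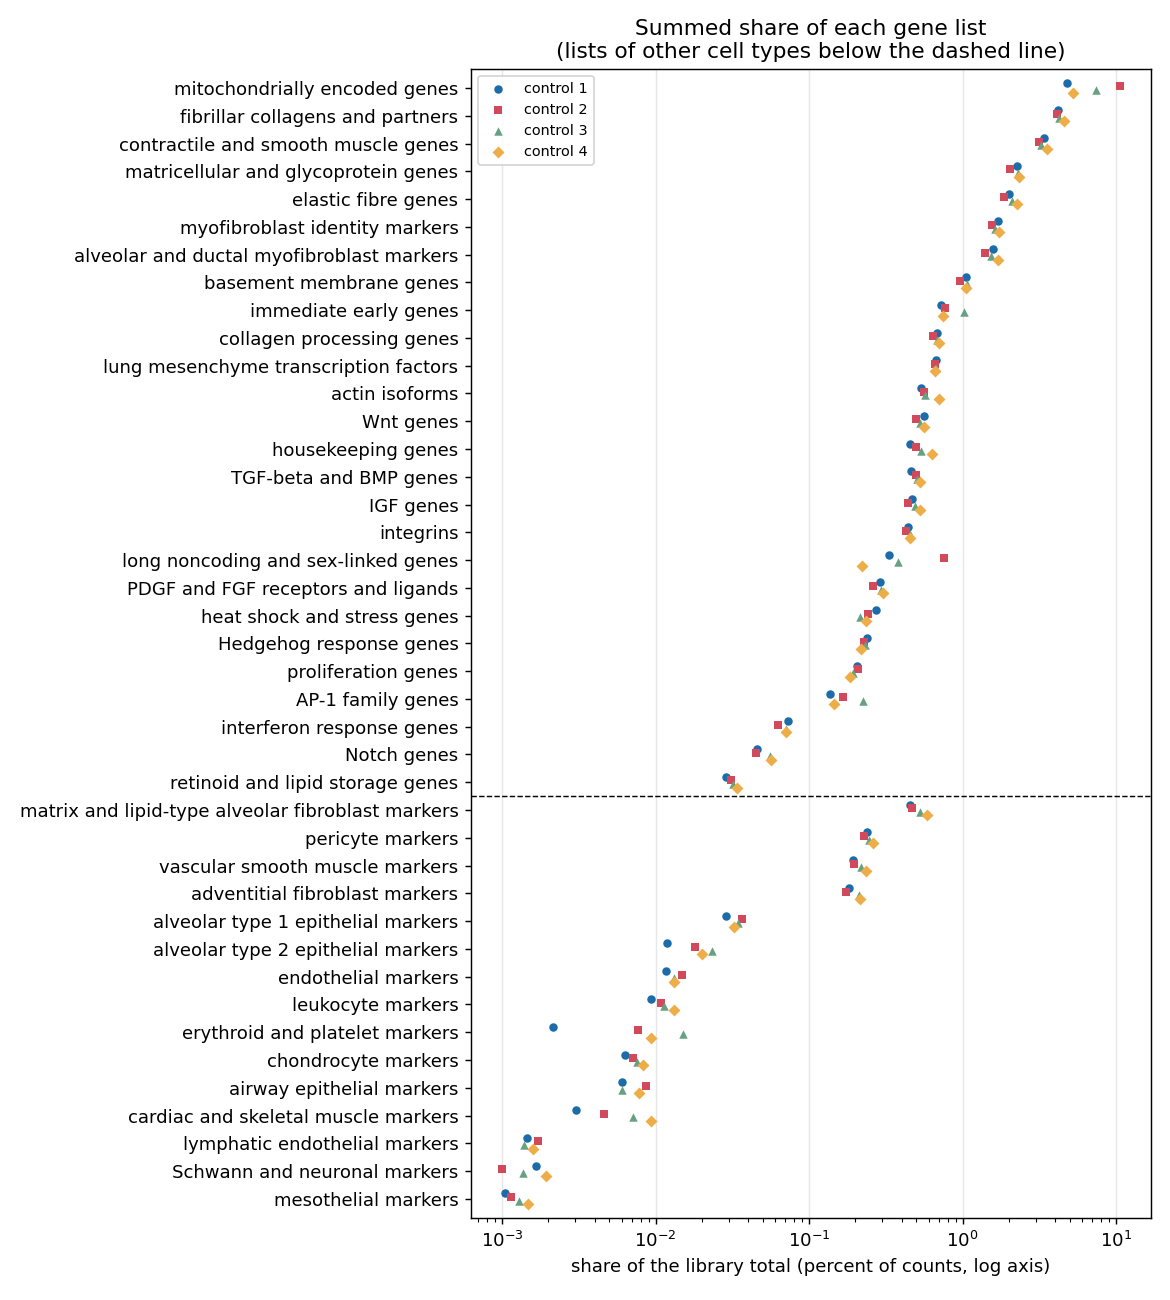
Summed share of counts of each gene list in the 4 control libraries, in percent on a log axis; each point is 1 library, and lists of other cell types lie below the dashed line. The fibrillar collagen, contractile, matricellular, elastic fibre and basement membrane lists sit at 0.963% to 4.59% with their points close together, the lists of non-mesenchymal cells sit at 0.0363% or lower, and mitochondrial genes in control 2 and immediate early genes in control 3 stand to the right of the other libraries.

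Some transcripts that cells normally carry in large amounts were nearly absent from the count table. Gapdh was counted at 8.19, 6.43, 6.4 and 2.71 CPM, Tpt1 at 6.41, 10.6, 8.42 and 7.67 CPM and Actg1 at the level given above, while Actb and Eef2 averaged 1725 ± 383 CPM and 1539.9 ± 317 CPM. Of the distinct 50-base words of its annotated transcripts, Actg1 shares 37.4% with transcripts of other genes, Gapdh 25.1%, Tpt1 18.7%, Pgk1 53.9% and Eef1a1 40.4%. Of the identity markers Fbn1 shares 19.7% with 1 other gene, Pdgfra 4.93%, Eln 2.82%, and Acta2 and Myh11 0.326% and 0.34%. Tagln (transgelin), a smooth muscle marker, was counted at 365, 450.3, 465 and 557 CPM, and 58.3% of its words also occur in 2 other annotated genes. Of the mitochondrial genome, mt-Co2, mt-Co3, mt-Atp6 and mt-Nd4l had no read in any library while mt-Co1 was counted at 7144, 7251, 13887 and 11810.2 CPM and mt-Cytb at 8403, 8986, 15741 and 13248 CPM. The genes with no read share 100%, 99.9%, 99.5% and 98.8% of their words with annotated transcripts of other genes, and mt-Cytb none. The short gene mt-Atp8 also had no read and shares none. How the authors counted reads that fit several genes is not given in the sources used here, so the levels of these genes, Tagln and the γ-actin among them, are uncertain, and the part of sharing was not tested. All ranks given here are ranks within this count table, and reads missing from such genes would raise the ranks of other genes.

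The spread among the libraries fell with abundance. The median coefficient of variation was 25.6% for 2274 genes at 1 to 5 CPM, 16.8% at 5 to 20, 12.0% at 20 to 100, 10.3% at 100 to 1000 and 9.81% for the 111 genes at 1000 CPM or more. Counting gives 10.3% in the lowest of these classes and 0.409% in the highest, so reads did not limit precision for abundant genes. The common biological coefficient of variation in edgeR was 0.220 over 13821 genes. Control 1 and control 4 were the least alike: 374 of 9698 genes (3.86%) differed by 2-fold or more between them, against 54 (0.557%) between control 2 and control 3. Pearson's r of log2 levels across those genes ran from 0.968 to 0.988, where genes are not independent replicates.

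**Figure D4:**
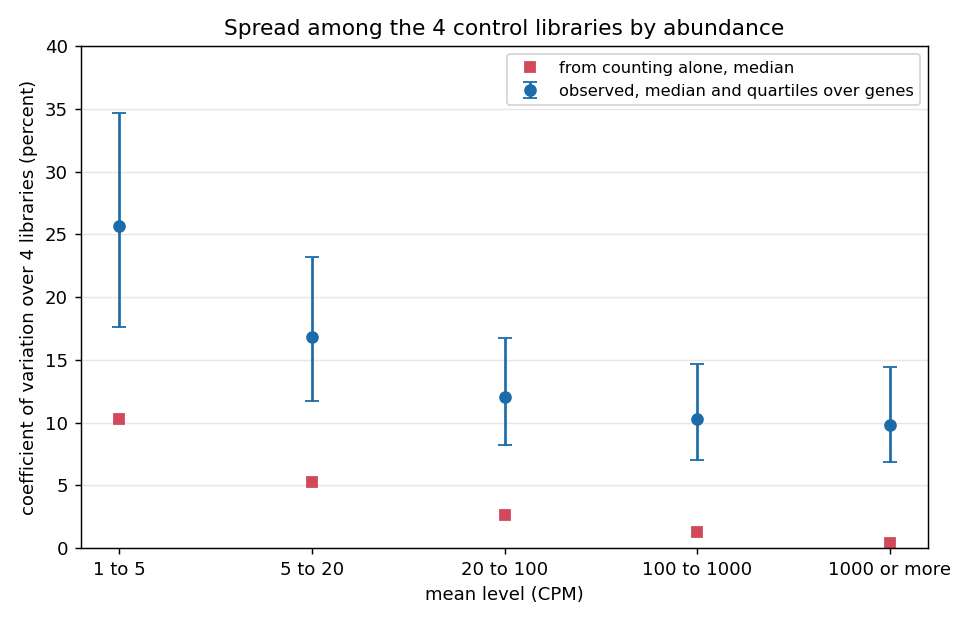
Coefficient of variation over the 4 control libraries (percent) by class of mean CPM; blue points and bars are the median and quartiles over genes, red squares the median spread that counting alone gives. The observed spread falls from 25.6% to 9.81% and stays above the counting part, which falls from 10.3% to 0.409%.

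Of the 11972 detected genes, 1442 (12.0%) spanned 2-fold or more between their lowest and highest library. Of the 9698 detected genes whose mean reached 5 CPM, 622 (6.41%) spanned 2-fold or more. Among those, 6 spanned 10-fold or more, mt-Rnr1, Adamdec1 and Hbb-bt included. Adamdec1, a metalloprotease of the ADAM family, was counted at 9.37, 91.9, 13 and 98.9 CPM, high in controls 2 and 4. The X-inactivation RNA Xist was counted at 8.6, 899, 541 and 0.542 CPM, and the Y-linked gene Ddx3y at 63.3, 0.541, 0.095 and 63.9 CPM. Kdm5d, Eif2s3y and Uty, also on the Y chromosome, followed Ddx3y in that controls 1 and 4 held 9.15 CPM or more and controls 2 and 3 at most 0.256 CPM. In these genes controls 2 and 3 held the female pattern and controls 1 and 4 the male pattern, so the spread among the 4 libraries spans both.

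Genes of the major histocompatibility complex split the libraries in another way. H2-D1 was counted at 62.2, 57.6, 22.7 and 16 CPM and H2-K1 at 48, 49.2, 21.6 and 14.5 CPM, and for both the lower of controls 1 and 2 was more than 2-fold above the higher of controls 3 and 4. H2-Q1 was counted at 12.4, 12.3, 0.0633 and 0.542 CPM, again high in controls 1 and 2. H2-T24 had the opposite order at 0.902, 2.76, 8.49 and 7.95 CPM. B2m, the light chain that pairs with all class I proteins, was counted at 218, 141, 238 and 192 CPM and did not follow that split. H2-Q1 shares 15% of its 50-base words with other genes, and H2-D1 12.8%. Outside the complex, Wdfy1 was counted at 10.7, 10.5, 24.3 and 47.4 CPM, and Prpf39 and Ankrd16 were highest in control 1 and lowest in control 4, at 58.7, 24, 19.7 and 9.9 CPM and 43.3, 21.5, 18.9 and 8.07 CPM.

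**Figure D5:**
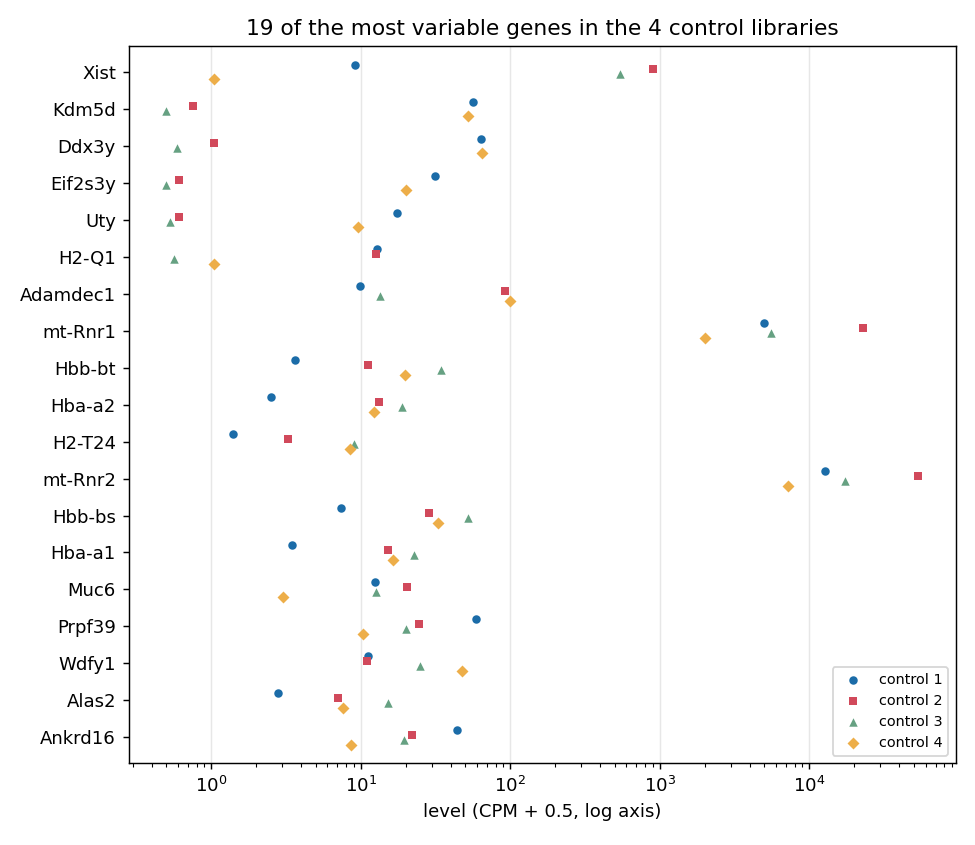
Levels of 19 of the 20 most variable genes whose mean reached 5 CPM, as CPM plus 0.5 on a log axis; each point is 1 control library. Xist is high in controls 2 and 3 and the Y-linked genes in controls 1 and 4, H2-Q1 is high in controls 1 and 2, and the haemoglobin genes are lowest in control 1.

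Among the steadiest genes at 50 CPM or more were Elk3, an ETS factor, at 229, 229, 231 and 229 CPM, a spread of 0.538%, and Atxn2, Fmo2, Slc25a51, Lamb1, Hmgcs1, Gjc1, Pxn and Erp44, with spreads of 0.92% to 1.35%. Pxn (paxillin), a focal adhesion adaptor, was counted at 241, 235, 241 and 238 CPM, and Gjc1, a gap junction protein, at 169, 169, 166 and 166 CPM. Fmo2, a lung mono-oxygenase, was counted at 191, 189, 189 and 193 CPM.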

How the data were processed

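The values were raw counts in 1 table that the authors deposited, with 1 row for each mouse Ensembl identifier, and its 4 control columns were used unchanged. The submitters' processing notes name the build GRCh38, a human build. No aligner, counting tool, annotation or method of cell isolation is named in the labels. Per the labels' protocols, mRNA was bead-selected, amplified (NuGEN Ovation RNA-Seq System V2) and made into Nextera XT libraries, with no step that marks the strand, so overlapping and antisense genes cannot be told apart. Of 43432 identifiers, 42462 matched GENCODE M21 (build GRCm38). The others held 0.0910% of counts. Library sizes were scaled by TMM in edgeR 4.0.16 from the 4 columns alone. RPKM used the union of exons. The common biological coefficient of variation came from an intercept-only edgeR model of genes kept by filterByExpr with a minimum count of 10, and DESeq2 1.42.0 was an alternative. With 1 group there was no contrast and no test. The spread procedure was tested on simulated data.

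The 41 lists (598 genes, 596 matched) and the members were chosen with earlier results of these data known. Named genes were the 5 identity markers, the 25 of highest CPM, the 15 nuclear coding genes of highest RPKM, the 5 leaders per kilobase of each biology list and the 2 of each other-cell list. The 20 most variable genes whose mean reached 5 CPM and the 10 least variable at 50 CPM were also named. Variability was the SD of log2(CPM + 0.5), and predicted genes and pseudogenes by symbol were left unnamed. A few genes that the rule names are not reported here. All other list members in the text, the search for shared 50-base words and the promoter search were chosen after their values were seen. Alternatives were other scalings, filters and lengths, totals without mitochondrial or the 20 most abundant genes, and leaving out each library.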

Additional observations from a re-analysis of the deposited data

Results flagged for a closer look

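Among 215 groups of 4 values checked, which covered 168 named genes, 41 gene lists and library measures, 14 had 1 library set apart from the other 3 by a gap that, as a share of the whole range, was above Dixon's critical value for 4 samples. Chance alone sets off about 1 in 20 such checks. Control 4 was the library set apart in 6, control 2 in 5, control 3 in 2 and control 1 in 1.

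Control 4 was the high library for Acta2 at 3905 CPM (3050.05 to 3151 in the others), Tgfbi at 5213 CPM (4445 to 4496), Fstl1 at 8198 CPM (7145 to 7239), Smo at 338 CPM (258 to 269) and the keratin gene Krt19 at 3.16 CPM (0.694 to 1.04). It was the low library for the R-spondin gene Rspo1 at 4.91 CPM (5.75 to 5.92). Control 2 was high for mt-Rnr1 at 22920.2 CPM (2018 to 5530.1). It was low for Itga5 at 161 CPM (177 to 179), Actc1 at 78.0 CPM (105 to 110.2), Hey1 at 10.1 CPM (14.1 to 14.2) and the basement membrane list at 0.963% of counts (1.05% to 1.07%). That share is of a total in which mitochondrially encoded genes took 10.5% in control 2. After TMM scaling the list summed to 10057, 9805, 10795.5 and 10702 CPM in control 1 to control 4, so control 1 lay close to control 2. Control 3 was high for the co-chaperone Dnajb1 at 115 CPM (99.6 to 101) and for Atxn2 at 229 CPM (225 in the others). Control 1 was low for the imprinted RNA H19 at 71.0 CPM (131 to 142). For Atxn2, 1 of the least variable genes, the gap was under 5 CPM.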

How the results depend on the processing

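No paired analysis was possible because 1 group was described. Values of the 5 identity markers stayed within their spread under the other scalings, without mitochondrial genes and without each library. Scaling factors centre on 1 and leave a mean over the libraries almost unchanged, and leaving out 1 library moves a mean by less than 1 SD. The outcomes for scalings and left-out libraries were thus largely fixed in advance and say nothing on stability. With the 20 most abundant genes out of the totals, Acta2 stood at 3853 CPM, Pdgfra at 1337 CPM and Eln at 2105 CPM. By CPM without length the ranks were 6 for Fbn1, 11 for Myh11, 15 for Acta2, 40 for Eln and 89 for Pdgfra. By longest transcript they were 32 for Fbn1, 40 for Eln and 176 for Pdgfra. Leaving out 1 library at a time gave Acta2 a rank of 5 to 6. The number of detected genes ran from 9135 with at least 5 CPM in every library to 13895 with at least 10 reads. The 100 most abundant genes held 24.6% of counts without mitochondrial genes.

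The common biological coefficient of variation was 0.324 with no filter beyond 1 read, 0.178 at a mean of at least 5 CPM and 0.177 in DESeq2. It ran from 0.205 to 0.248 with 1 library left out, the highest without control 3. Without mitochondrial genes in the total, 17 list shares moved by more than their SD: 1.78% for identity markers, 3.59% contractile, 4.62% fibrillar collagens, 1.11% basement membrane, 2.40% matricellular, 0.729% collagen processing, 0.309% PDGF and FGF, 0.534% TGF-β and BMP, 0.246% Hedgehog, 0.575% Wnt, 0.517% IGF, 0.0336% retinoid and lipid, 0.714% transcription factors, 0.213% proliferation, 0.0748% interferon, 0.478% integrins and 0.261% pericyte markers. As reads per kilobase, 32 list shares moved, all by the change of unit. The contractile, matrix and marker lists came to 1.22% for identity markers, 1.78% alveolar and ductal markers, 1.14% actins, 1.62% elastic fibre, 2.83% fibrillar collagens, 0.536% basement membrane, 1.68% matricellular and 0.831% collagen processing. Signalling and regulatory lists came to 0.335% PDGF and FGF, 0.445% TGF-β and BMP, 0.106% Hedgehog, 0.472% Wnt, 0.342% IGF, 0.0327% Notch, 0.0340% retinoid and lipid, 0.508% transcription factors, 0.137% proliferation, 0.327% interferon and 0.340% integrins. The rest came to 22.9% mitochondrial, 0.724% housekeeping, 0.208% pericyte, 0.768% matrix and lipid-type fibroblast, 0.223% adventitial, 0.00230% mesothelial, 0.0339% alveolar type 2, 0.0313% airway, 0.0117% endothelial, 0.0321% leukocyte, 0.0419% erythroid, 0.00358% nerve and 0.00511% cartilage markers. Each share stayed within 1 SD without any 1 library. Leaving out 1 of 4 values cannot move a mean by 1 SD, so that outcome was fixed in advance and says nothing on stability.

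Limits are that 4 libraries fix the spread loosely, that the handling of reads shared between genes is not given, and that differences in length bias between libraries were not removed. At this depth 3 reads, the limit that a count of 0 allows, correspond to 0.0694 to 0.0950 CPM, and levels below that rest on 1 or 2 reads. This limit covers counting error only.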

Other observations

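Interferon response genes were uneven in level. Of 18, 13 were detected, and the summed share was 0.0631% to 0.0732% of counts. The membrane proteins that restrict virus entry, Ifitm2 and Ifitm3, led with B2m: Ifitm3 was counted at 125, 108, 132 and 158 CPM and averaged 193 ± 30.9 RPKM, while 48.5% of the 50-base words of Ifitm2 are shared with another gene. The inducible genes Isg15, at 0.231, 0, 0.412 and 0.211 CPM, and Ifit1, at 0.439, 0.484, 0.855 and 0.421 CPM, were under 1 CPM in all 4 libraries.

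Of the long noncoding RNAs, the nuclear RNA Malat1 was counted at 2757, 6502, 3033 and 1864 CPM, with control 2 more than 2-fold above each other library. The imprinted RNA Meg3 was counted at 137, 207, 136 and 75.5 CPM and Neat1 at 4.74, 12.2, 5.1 and 4.06 CPM, and control 2 was again the highest for both. Control 2 was also the library with the largest share of mitochondrial ribosomal RNA, and whether these values move together for a common reason was not tested. The mitochondrial protein genes did not share that order: mt-Nd1 was counted at 3761, 4335, 6099.6 and 6068 CPM, highest in controls 3 and 4.

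Of 9 cartilage markers 3 were detected. Col2a1, the main cartilage collagen, was counted at 35.8, 42.8, 45.5 and 46 CPM, and Sox9, the cartilage regulator that airway epithelium also expresses, at 21.1, 25.3, 27.1 and 33.2 CPM. Acan (aggrecan), the main cartilage proteoglycan, was at 0.0231, 0.398, 1.2 and 1.53 CPM.

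The mural markers differed in level: beside the abundant Rgs5, Mcam, an adhesion molecule of endothelium and mural cells, was counted at 189, 224, 252 and 258 CPM and Pln (phospholamban), of vascular smooth muscle and heart, at 0.786, 1.11, 0.792 and 0.993 CPM, but 56.2% of the 50-base words of Pln are shared with other genes, so its level is uncertain. Of 10 vascular smooth muscle markers 7 were detected, 3 of them in the top 10% per kilobase.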
